A study of Drosophila melanogaster with 9 samples.

Results

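At 25 °C, the usual culture temperature of the Drosophila line S2R+, chromatin accessibility was compared with that at both ends of the tolerated range, 14 and 29 °C. The comparison asked which regions were more or less accessible at 25 °C than at the average of the extremes. As 25 °C is closer to 29 than to 14 °C, a peak that changes steadily with temperature also differs from this average. The comparison used all 17175 consensus peaks of the ATAC-Seq experiment, without selection. All 9 libraries entered, 3 replicate cultures each at 14, 25 and 29 °C. For every peak the 25 °C level was set against the mean of the 14 and 29 °C levels on the log2 scale, so that a positive value means higher accessibility at 25 °C. All cultures were kept for 36 h at 25 °C and then for 24 h at the final temperature, so the 25 °C cultures experienced no shift, and those at 14 and 29 °C experienced one downwards or upwards. Tagmentation was done at 25 °C throughout. S2R+ is a single line with hemocyte (blood cell) features, and the cultures differed in temperature alone by their labels. The study's methods give a higher number of plated cells for 14 °C, whereas the sample descriptions give equal numbers, and plating and temperature cannot be told apart.

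ATAC-Seq uses a transposase that cuts accessible DNA and adds sequencing adaptors to it, so that reads accumulate at promoters, enhancers and other sites with few nucleosomes. The heat shock response is the best known temperature response of flies. Heat shock factor, Hsf, binds to promoters of Hsp genes and releases paused RNA polymerase into the gene, and chaperones such as Hsp70, Hsp90 (Hsp83 in the fly) and the Hsp40 protein DnaJ-1 help other proteins to fold. A strong chill followed by rewarming also activates part of these genes in flies. In a culture, fewer cells with an open site and a site that is less open in each cell cannot be told apart.

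The following regions are examples of those whose 25 °C libraries did not overlap with any library from the other temperatures (values below). The first region and the last one held this position under each of the 6 scalings and offsets tried, and the other 2 under 5 of them. The sequences are the plus strand of the dm6 genome as given by RefSeq, with the central 300 bases of each peak, cut back to bases outside exons and UTRs. Capitals mark matches to 9 short motifs, searched on both strands and counted where they overlapped one another. AGATAAG is the site searched for GATA factors, TATCGATA that of DREF (named DRE), and GAGAGAG that of the GAGA factor. TGANTCA stands for AP-1, TTCNNNGAA for STAT proteins and CACGTG for the E-box. CCGGAAG stands for Ets factors, GGTCACACT for M1BP, and GAANNTTC for a unit of the heat shock element. A match is a description of the letters and not evidence of binding. The promoter of CecA1 and the intron of Pdp1 hold a GATA match, and the region nearest to Inx2 holds an AP-1, an E-box and a heat shock element match. The region in CHES-1-like holds none. Further regions of this kind also held none, among them those at fkh, cic and QC, so the examples do not give the frequency of matches.
CecA1 promoter, chr3R:30210676-30210873: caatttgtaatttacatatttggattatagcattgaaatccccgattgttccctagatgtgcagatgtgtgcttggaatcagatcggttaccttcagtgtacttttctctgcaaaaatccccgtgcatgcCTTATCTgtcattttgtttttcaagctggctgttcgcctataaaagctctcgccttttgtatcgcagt
region nearest to the TSS of Inx2, chrX:7004541-7004840: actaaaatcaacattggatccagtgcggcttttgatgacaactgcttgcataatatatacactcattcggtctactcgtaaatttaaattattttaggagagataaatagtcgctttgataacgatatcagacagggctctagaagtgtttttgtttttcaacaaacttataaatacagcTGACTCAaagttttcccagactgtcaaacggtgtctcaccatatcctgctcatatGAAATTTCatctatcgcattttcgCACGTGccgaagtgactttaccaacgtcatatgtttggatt
intron of Pdp1, chr3L:7845715-7846014: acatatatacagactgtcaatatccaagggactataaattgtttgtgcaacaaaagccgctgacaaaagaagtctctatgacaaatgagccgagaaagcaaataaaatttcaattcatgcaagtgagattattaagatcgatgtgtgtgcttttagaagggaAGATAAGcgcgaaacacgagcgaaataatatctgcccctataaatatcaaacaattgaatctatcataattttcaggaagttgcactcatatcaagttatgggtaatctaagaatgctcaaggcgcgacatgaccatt
intron of CHES-1-like, chrX:7700285-7700584: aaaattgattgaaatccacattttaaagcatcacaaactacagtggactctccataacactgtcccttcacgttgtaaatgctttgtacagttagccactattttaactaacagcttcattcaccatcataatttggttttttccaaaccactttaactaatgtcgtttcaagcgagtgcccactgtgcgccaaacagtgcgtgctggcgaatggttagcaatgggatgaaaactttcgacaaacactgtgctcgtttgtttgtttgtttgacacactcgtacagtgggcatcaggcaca

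The libraries held 3290670 to 10805366 counts in peaks. Those at 25 °C had 6563700, 6046528 and 7456082. One library at each temperature stood apart from the others of its group by a wider spread of log2 counts over peaks: replicate 2 at 14 °C, replicate 3 at 25 °C and replicate 2 at 29 °C. Their deviations from the group means went together across peaks, with a correlation of 0.817 between replicate 2 at 14 °C and replicate 3 at 25 °C and of 0.761 between the latter and replicate 2 at 29 °C. These are descriptions over peaks that share libraries. Values without these 3 libraries are given below. Of the 12 genes that mark hemocytes, 11 had at least 1 peak, and the transcription factor genes srp, ush and pnr had their peaks of highest accessibility among the tallest 10% of all peaks. NimC1, a phagocytosis receptor gene, had none, and the peak at Hml was low (17.5 CPM, counts in peaks scaled to a common library size). Peaks at genes of other cell types were also present, at elav of neurons and twi of mesoderm among others, so accessibility alone did not separate the markers.

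For most peaks the 25 °C level lay between the levels at 14 and 29 °C. The 25 °C mean was within those of the extremes in 12662 peaks (73.7%), above both in 2193 (12.8%) and below both in 2320 (13.5%). Where it lay outside, it was not far outside. The median distance beyond the nearer extreme was 0.07 on the log2 scale in both directions, and the distance was more than 0.25 in 78 peaks above and 144 peaks below, and more than 0.5 in 2 and 6 peaks. Single libraries at 25 °C lay between less often than their mean, in 51.0%, 68.1% and 34.6% of the peaks for replicates 1, 2 and 3. Replicate 3, the library with the widest spread, was thus outside the range of the other means in most peaks.

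**Figure D1:**
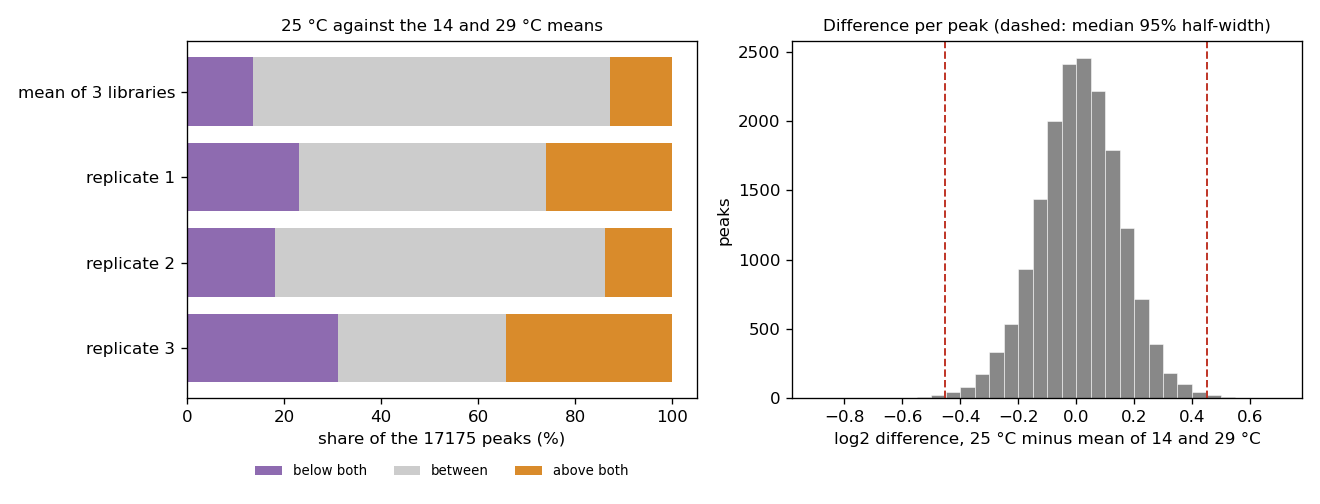
The left panel gives the share of the 17175 peaks (%) in which the 25 °C level was below both, between or above both of the 14 and 29 °C means, for the mean of the 3 libraries and for each library, and the right panel the number of peaks by log2 difference of 25 °C from the mean of 14 and 29 °C. The mean lies between in 73.7% of the peaks, and nearly all differences lie within the dashed lines at 0.45 on either side of 0, the median half-width of their 95% intervals.

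No peak passed the test at 25 °C against the mean of the extremes. At an adjusted p under 0.05 (edgeR's quasi-likelihood test, Benjamini-Hochberg adjustment over the 17175 peaks), 0 peaks were higher and 0 were lower, a share of 0% in each direction, and every adjusted p rounded to 1.00. At an unadjusted p under 0.05, 55 peaks were higher (0.320%) and 81 lower (0.472%), with a smallest p of 0.00193. Both directions together made 0.792% of the peaks, less than the fraction of 0.05 expected if no peak differed. The p values of this fit were thus larger than expected without differences, and the lack of calls does not show equal accessibility. DESeq2 also called 0 peaks, with 63 higher and 160 lower at an unadjusted p under 0.05. A stricter question, whether 25 °C differed from 14 °C and also from 29 °C in the same direction, was answered with the larger of both p values of a peak. At an adjusted p under 0.05 this gave 0 peaks (0%), and unadjusted 0 higher and 9 lower, and DESeq2 gave 0 peaks and unadjusted 1 higher and 15 lower.

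The absence of calls was accompanied by intervals that bound the differences. The log2 difference had a median of 0.01, and the quartiles were -0.08 and 0.11. The whole range was -0.85 to 0.69, with 48 peaks above 0.5 in size and 0 above 1. The standard error of a difference had a median of 0.21. The 95% interval lay within a 2-fold change in either direction for 16934 peaks (98.6%) and within a 1.5-fold change for 8978 (52.3%). For most peaks, a 2-fold difference between 25 °C and the extremes was therefore outside the interval. The median half-width of the intervals was 0.45 on the log2 scale.

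Calls appeared in 3 fits that treat the libraries of wide spread differently. Without replicate 2 at 14 °C, replicate 3 at 25 °C and replicate 2 at 29 °C, an alternative chosen after the data had been seen, edgeR called 107 peaks higher (0.623% of all peaks) and 15 lower (0.0873%), 0.710% in all. With library quality weights in limma voom, 240 were higher (1.40%) and 80 lower (0.466%), 1.86% in all. The weights of replicates 1, 2 and 3 were 1.12, 0.13 and 5.90 at 14 °C and 0.73, 5.21 and 0.32 at 25 °C. At 29 °C they were 2.45, 0.28 and 1.41. The 25 °C level in the fit with weights thus rested mostly on replicate 2. With the spread of each library as a covariate, 8 were higher (0.0466%) and 1 lower (0.00582%), 0.0524% in all. In each of these fits, 0 peaks passed the test beyond both extremes. For 14 against 29 °C, at the same threshold, these fits called 10017, 11518 and 1049 peaks in this order, against 210 in the main fit. Between the fit without 3 libraries and that with weights, 81 of the higher peaks (75.7% and 33.8% of each list) and 5 of the lower peaks (33.3% and 6.25%) were shared. These calls are against the mean of the extremes. Against a straight line in temperature, which allows for 25 °C being closer to 29 °C, 24 peaks were higher and 28 lower without the 3 libraries. The counts against this line were 11 and 20 with weights and 8 and 1 with the covariate.

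Most of the peaks called higher without those libraries were also more accessible at 29 than at 14 °C. In 99 of the 107, the 29 °C mean over all libraries was above the 14 °C mean (49.3% of all peaks), and in 69 the 25 °C mean was above both (12.8% of all peaks). The position of the 25 °C mean comes from the contrast that chose these peaks, and these counts are descriptions. The peak with the smallest p lay at CR46425, a non-coding gene on chromosome X, with 75.2, 84.8 and 116 CPM at 25 °C, 26.5, 63.5 and 33.8 CPM at 14 °C and 82.2, 118 and 67.0 CPM at 29 °C. Its libraries at 25 and 29 °C overlapped. A peak at the TSS of fd102C, a forkhead transcription factor gene on chromosome 4, had 65.6, 73.7 and 71.2 CPM at 25 °C, 27.5, 50.3 and 33.4 CPM at 14 °C and 57.6, 72.7 and 56.0 CPM at 29 °C. A peak in an intron of Reck, which encodes an inhibitor of matrix metalloproteinases in mammals, had 57.9, 56.1 and 56.0 CPM at 25 °C, 31.7, 53.5 and 30.2 CPM at 14 °C and 38.5, 56.9 and 38.7 CPM at 29 °C. At Reck the 25 °C libraries lay above the others except replicate 2 at 29 °C, which was left out of this fit. Among the 10 of the 15 lower peaks with the smallest p, 3 were next to ribosomal RNA genes or their pseudogenes on chromosome X, repeated sequences at which the placement of reads is uncertain, and 1 was the peak in DnaJ-1 described below.

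In a small number of peaks the 3 libraries at 25 °C did not overlap with the 6 others. All 25 °C libraries were above the others in 38 peaks (0.221%) and below them in 79 (0.460%). With the 9 libraries of each peak in random order, a larger fraction of peaks, 0.0238 for both directions together, would have such a position. The position alone therefore does not mark a peak as changed at 25 °C. The counts of 38 and 79 depended on the scaling of the libraries. With RLE scaling they were 34 and 95, with the total count in peaks 50 and 102, with the authors' size factors 112 and 26, with offsets against peak height 77 and 136 and with offsets against GC content 42 and 87. The split at an unadjusted p under 0.05 likewise moved from 55 higher and 81 lower to 174 higher and 25 lower with the authors' size factors. Only 3 peaks were above and 5 were below under each of the 6. Those above included a tRNA gene cluster within EcR and an intron of CHES-1-like, and those below lay at CecA1, CG11384, apt, Hel89B and CG14401. Leaving out 1 library, so that fewer libraries had to be exceeded, gave 60, 81 and 53 above and 130, 154 and 123 below without replicates 1, 2 and 3 at 14 °C. Without replicates 1, 2 and 3 at 25 °C there were 183, 118 and 93 above and 204, 171 and 288 below, and without those at 29 °C 50, 131 and 44 above and 94, 135 and 120 below.

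The 12 peaks with the smallest p among those above all other libraries were at genes of several kinds. Their log2 differences were between 0.30 and 0.50, and the directions were the same in each alternative fit. The smallest p was at asRNA:CR44873, an antisense RNA gene next to Ndf (chromosome 2L, 10004490 to 10004990). This peak had 90.9, 83.8 and 100.4 CPM at 25 °C, 48.8, 61.7 and 52.3 CPM at 14 °C and 71.9, 80.3 and 80.6 CPM at 29 °C. Its log2 difference was 0.50 ± 0.14 (SE) with an unadjusted p of 0.00501 and an adjusted p of 1.00. It was past the threshold in the 3 fits described above, with adjusted p of 0.0380 without the 3 libraries, 0.0273 with weights and 0.0403 with the covariate, and with offsets against GC content its libraries overlapped. Accessibility was thus lowest at 14 °C, and the step to 29 °C was the smaller one, at 0.24 with an unadjusted p of 0.178.

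Several genes of transcription factors were in this group. The peak upstream of fkh, the gene of the transcription factor Forkhead (chromosome 3R, 28585299 to 28585799), had 74.7, 71.1 and 62.7 CPM at 25 °C, 57.4, 55.9 and 60.6 CPM at 14 °C and 52.3, 45.9 and 44.7 CPM at 29 °C. Here the lowest 25 °C library was close to the highest at 14 °C, and under 3 of the 6 scalings and offsets they overlapped. An intron of CHES-1-like, a further forkhead gene (chromosome X, 7700185 to 7700685), had 81.1, 86.1 and 96.5 CPM at 25 °C against 57.9, 71.1 and 62.4 CPM at 14 °C and 77.7, 79.7 and 67.7 CPM at 29 °C. The gaps to 29 °C were thus small at this site. The remaining regulators were cic, the gene of the repressor Capicua, with a log2 difference of 0.30 ± 0.12 (SE) in an intron, and mirr, an Iroquois homeobox gene with the nearest TSS to an intergenic peak, with 0.37 ± 0.15. Another intron peak of cic went the other way, below all other libraries, with -0.23 ± 0.15.

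The other peaks above all libraries lay at genes of varied function. A tRNA:Asn gene in a tRNA cluster within EcR, the ecdysone receptor gene (chromosome 2R, 6162276 to 6162776), had 49.9, 55.1 and 51.5 CPM at 25 °C, 37.1, 34.1 and 33.1 CPM at 14 °C and 38.9, 48.3 and 44.1 CPM at 29 °C. Copies of tRNA genes are near-identical, and their counts are uncertain for that reason. An intron of spg, which encodes a guanine nucleotide exchange factor of the DOCK family, had a log2 difference of 0.37 ± 0.12 (SE). A coding exon of ctrip, a ubiquitin ligase gene, had 0.43 ± 0.15, a coding exon of CG31817 had 0.45 ± 0.15, a site upstream of the amino acid transporter gene Eaat2 had 0.46 ± 0.17, and the TSS of QC, the glutaminyl cyclase gene, had 0.31 ± 0.13. The libraries at QC overlapped under 3 of the 6 scalings and offsets.

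The peaks below all other libraries were led by DnaJ-1. The peak in its 3′ UTR (chromosome 3L, 5750308 to 5750808) had the smallest p of all 17175. It had 43.7, 34.1 and 35.4 CPM at 25 °C, 49.0, 51.3 and 59.8 CPM at 14 °C and 66.5, 56.3 and 56.0 CPM at 29 °C. Its log2 difference was -0.58 ± 0.14 (SE), with a 95% interval from -0.90 to -0.26, an unadjusted p of 0.00193 and an adjusted p of 1.00. Both steps had the same sign, at -0.50 from 14 °C (unadjusted p of 0.0104) and -0.66 from 29 °C (0.00189). Like asRNA:CR44873, it was past the threshold in the 3 other fits, with adjusted p of 0.0380 without the 3 libraries, 0.0105 with weights and 0.0358 with the covariate. With offsets against GC content the libraries overlapped.

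**Figure D2:**
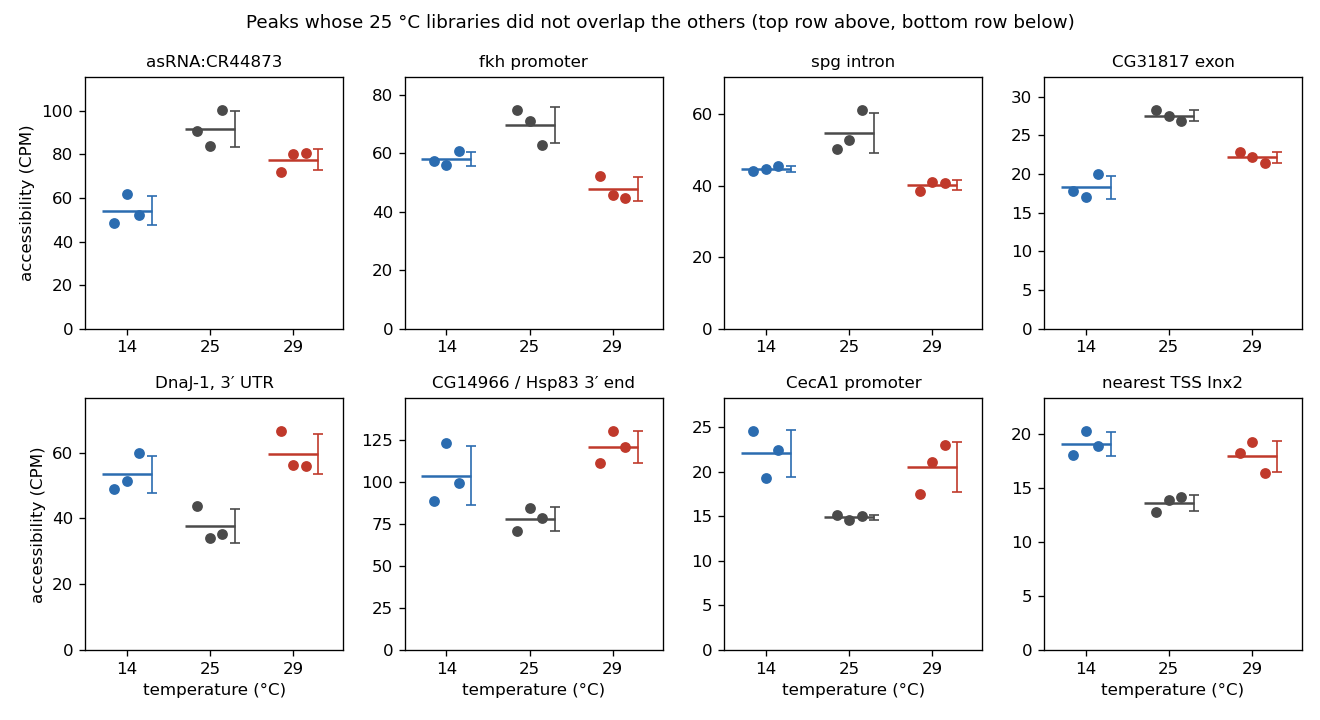
Accessibility in CPM is plotted for each library (points), with the mean (line) and SD (bar) of the 3 libraries at 14, 25 and 29 °C, for 4 peaks whose 25 °C libraries were above all others (top) and 4 whose 25 °C libraries were below them (bottom). At DnaJ-1 the 25 °C points lie between 34.1 and 43.7 CPM and all others between 49.0 and 66.5 CPM.

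A further 2 peaks below all others were at the promoter of a defence gene and at an intergenic site centred 6019 bp from the nearest TSS. The promoter peak of CecA1, which encodes the antimicrobial peptide Cecropin A1 (chromosome 3R, 30210576 to 30211076), had 15.1, 14.5 and 15.0 CPM at 25 °C, 24.5, 19.2 and 22.4 CPM at 14 °C and 17.4, 21.1 and 23.0 CPM at 29 °C. The log2 difference was -0.51 ± 0.17 (SE). This was a low peak that kept its gap under each scaling, and it overlaps the neighbourhood of other Cecropin genes and of RpS7. The intergenic peak nearest to the TSS of Inx2, a gap junction gene (chromosome X, 7004441 to 7004941), had 12.7, 13.9 and 14.1 CPM at 25 °C, 18.1, 20.2 and 18.9 CPM at 14 °C and 18.2, 19.2 and 16.4 CPM at 29 °C. At Inx2 the levels at 14 and 29 °C overlapped one another, and the log2 difference of 25 °C was -0.45 ± 0.16 (SE).

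Regulatory genes were also found among the peaks below all others. The TSS of apt, the gene of the transcription factor Apontic (chromosome 2R, 23580663 to 23581163), had 30.8, 33.8 and 29.6 CPM at 25 °C, 38.9, 53.5 and 38.4 CPM at 14 °C and 39.2, 38.9 and 47.5 CPM at 29 °C. An intron of Pdp1, a bZIP transcription factor gene of the circadian clock (chromosome 3L, 7845615 to 7846115), had 15.1, 16.6 and 16.1 CPM at 25 °C, 21.3, 27.9 and 19.7 CPM at 14 °C and 21.0, 19.7 and 23.6 CPM at 29 °C. In both, the libraries at 14 and 29 °C overlapped one another and those at 25 °C were close together. An intron peak of apt went the other way, above all other libraries, with a log2 difference of 0.24 ± 0.14 (SE). The 3′ UTR of CG11384 had a log2 difference of -0.42 ± 0.14 (SE), an intron of plum -0.49 ± 0.16, a TSS of the zinc transporter gene ZnT77C -0.41 ± 0.15, and the 3′ UTR of the cuticle protein gene TwdlE -0.44 ± 0.16. An intron of lncRNA:CR42839 had -0.44 ± 0.14, with most of the step towards 29 °C, and the TSS of CG42354 had -0.51 ± 0.19. The libraries overlapped under 3 of the 6 scalings and offsets at lncRNA:CR42839 and under 2 at CG42354.

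Genes for heat shock proteins and their regulator Hsf were the list with the lowest median. Of 19 such genes, 15 had a total of 22 peaks within the gene or 2000 bp upstream. Their median log2 difference was -0.14, against 0.01 for all peaks, and 15 of the 22 were below 0 (46.6% of all peaks). The median difference of 25 °C from 14 °C was -0.01 (-0.04 for all peaks), and that from 29 °C was -0.26 (0.02 for all peaks). As a list, the level at 25 °C was thus near that at 14 °C and below that at 29 °C. In 4 of the 22 the 25 °C libraries were below all others (0.460% of all peaks), and in 0 they were above. No peak of the list passed the test, and 4 were lower and 0 higher at an unadjusted p under 0.05 (0.472% and 0.320% of all peaks). The median was -0.07 with the authors' size factors, which moved the median of all peaks to 0.08, and -0.08 without replicate 3 at 25 °C. With 25 °C set against a straight line in temperature in place of the mean of the extremes, it was -0.21, since 25 °C is closer to 29 than to 14 °C. Peaks of one gene are not independent, and DnaJ-1 and Hsp83 hold 7 of the 22.

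Within Hsp83 and DnaJ-1, the differences were more negative at peaks inside or at the end of the gene than at the promoter peaks. Hsp83 encodes the Hsp90 chaperone. The peak in its coding exon, centred 1680 bp from the gene's start (chromosome 3L, 3194399 to 3194899), had 52.1, 55.0 and 56.0 CPM at 25 °C, 68.3, 70.1 and 65.5 CPM at 14 °C and 105.9, 72.9 and 61.0 CPM at 29 °C. The peak at its 3′ end, which also covers the TSS of CG14966 (chromosome 3L, 3196981 to 3197948), had 70.8, 84.7 and 78.2 CPM at 25 °C, 88.9, 122.8 and 99.5 CPM at 14 °C and 111.3, 130.0 and 120.5 CPM at 29 °C. Their log2 differences were -0.44 ± 0.18 and -0.52 ± 0.17 (SE). At the TSS of Hsp83 the 25 °C libraries overlapped with those at 14 °C and were below those at 29 °C, with 72.4, 87.1 and 91.4 CPM at 25 °C, 73.3, 86.5 and 69.6 CPM at 14 °C and 102.5, 133.8 and 114.2 CPM at 29 °C. Its difference was -0.18 ± 0.17. At DnaJ-1 the peak over the 5′ UTR had 79.3, 84.2 and 91.7 CPM at 25 °C, 51.7, 92.4 and 68.3 CPM at 14 °C and 93.7, 115.9 and 83.4 CPM at 29 °C, a difference of 0.03 ± 0.20 with overlapping groups. The difference between promoter and gene body peaks was not tested.

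The small heat shock genes at one locus of chromosome 3L had a further pattern. At Hsp26 the TSS peak had 21.5, 20.7 and 23.6 CPM at 25 °C, 23.8, 24.3 and 26.7 CPM at 14 °C and 28.3, 25.8 and 25.5 CPM at 29 °C. These groups did not overlap, but the gap was narrow, the difference was -0.23 ± 0.16 (SE) and under 3 of the 6 scalings and offsets the libraries overlapped. The peak at the TSS of Hsp67Ba, upstream of Hsp23, had 28.7, 27.9 and 29.3 CPM at 25 °C, 28.5, 33.8 and 25.8 CPM at 14 °C and 41.0, 50.1 and 44.1 CPM at 29 °C. The libraries at 25 and 14 °C overlapped at this site and those at 29 °C were higher, so its difference of -0.35 ± 0.15 (SE) came with a difference of -0.04 from 14 °C. At the same locus, the TSS peak of Hsp22 had a difference of -0.24 ± 0.17. A peak upstream of Hsp22, at the TSS of Fdx1, had -0.25 ± 0.20, and the peak at Hsp27 had 0.03. Away from this locus, the peaks at Hsp68, Hsp70Ba and Hsp70Bb had differences of -0.11, -0.12 and -0.16, and the 3 peaks at Hsf between 0.09 and 0.11. Counts at the Hsp70 genes, a family of nearly equal copies, are uncertain.

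**Figure D3:**
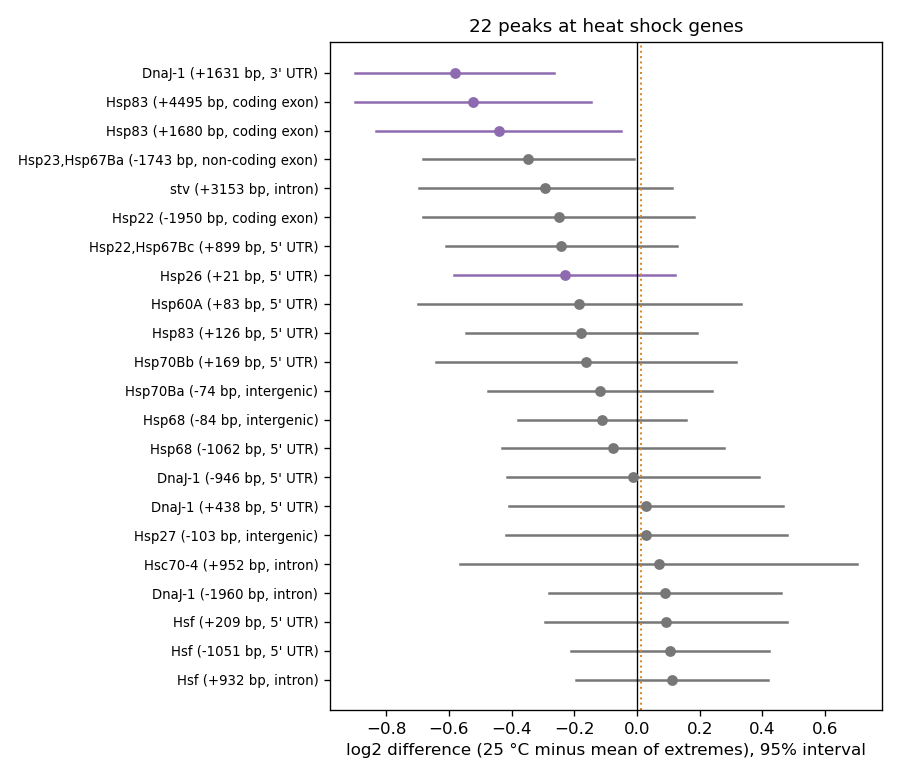
Each of the 22 peaks at heat shock genes is shown with its log2 difference of 25 °C from the mean of 14 and 29 °C (point) and 95% interval (line), with the distance of the peak centre from the start of the gene in bp, the solid line at 0 and the dotted line at the median of all peaks. The 4 peaks in purple, at DnaJ-1, Hsp83 and Hsp26, are those whose 25 °C libraries were below all others, and the interval of the first 4 peaks from the top does not include 0.

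The other 12 lists lay close to the median of all peaks, with medians between -0.05 and 0.07 and 0 peaks past the test in each. Of all peaks, 53.4% were above 0. The median depended on peak height, with -0.03 in the 3435 peaks of lowest mean count and 0.07 in the 3435 of highest. It was 0.03 for peaks at a TSS and -0.005 for those in introns. The lists were not matched for height or position. The highest median, 0.07, was that of the unfolded protein response, the response to misfolded proteins in the endoplasmic reticulum, with 22 of 30 peaks above 0. Its 2 peaks with the smallest p were at PEK, the kinase that slows translation, with a difference of 0.27 ± 0.17 (SE), and at Gp93, an endoplasmic reticulum Hsp90, with 0.25 ± 0.16. In both, the 25 °C libraries overlapped with those at 29 °C. The lowest of the other medians, -0.05, was that of 25 peaks at cold-response genes, which include the peaks of Hsp83.

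The leading peaks of the signalling and cell identity lists took several forms. In an intron of msn, a kinase gene upstream of the stress kinase JNK, accessibility was 121, 124 and 149.05 CPM at 25 °C, 62.4, 70.5 and 57.7 CPM at 14 °C and 138, 195 and 135 CPM at 29 °C. The 25 °C libraries were above those at 14 °C and overlapped with those at 29 °C, and the difference from the mean of both was 0.40 ± 0.19 (SE). The other leading peak of the stress kinase and AP-1 list, in an exon of kay, the fly Fos gene, had 134, 110 and 93.2 CPM at 25 °C, 159, 114 and 159 CPM at 14 °C and 171, 168 and 136 CPM at 29 °C. Here the 25 °C libraries overlapped with those at 14 °C and were below those at 29 °C, and the difference was -0.42 ± 0.21 (SE). An intron of ush, a cofactor gene of GATA factors in hemocytes, had the smallest p of the hemocyte list. It had 40.6, 63.4 and 66.5 CPM at 25 °C, 74.5, 86.9 and 84.5 CPM at 14 °C and 65.4, 60.8 and 67.7 CPM at 29 °C, a difference of -0.36 ± 0.18 (SE). In an intron of Pxn, the peroxidasin gene of hemocytes, the values were 197, 201 and 230 CPM at 25 °C, 72.0, 134 and 85.9 CPM at 14 °C and 237, 332 and 192 CPM at 29 °C. At InR, the insulin receptor gene, an intron peak had 24.7, 25.8 and 16.3 CPM at 25 °C, 47.5, 42.1 and 35.8 CPM at 14 °C and 27.7, 20.03 and 21.1 CPM at 29 °C. At msn, ush, Pxn and InR the 25 °C libraries overlapped with those at 29 °C and not with those at 14 °C, a form that also gives a difference from the mean of the extremes.

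In the list of JAK-STAT and Ets genes, the leading peaks were at 2 genes of feedback inhibitors and had a 25 °C level below that at 14 °C. A peak in Ptp61F, a tyrosine phosphatase gene, had 20.1, 19.9 and 18.8 CPM at 25 °C, 32.2, 27.0 and 40.4 CPM at 14 °C and 30.5, 19.5 and 29.9 CPM at 29 °C. At 29 °C only replicate 2, a library of wide spread, was within the range at 25 °C. Its difference was -0.59 ± 0.21 (SE), and its adjusted p was 0.0310 without the 3 libraries of wide spread. A peak in Socs36E, a suppressor of cytokine signalling, had 27.4, 33.6 and 35.8 CPM at 25 °C, 41.1, 74.2 and 51.0 CPM at 14 °C and 42.5, 41.3 and 32.4 CPM at 29 °C, a difference of -0.53 ± 0.20. The TSS nearest to the centre of this peak, 522 bp away, was that of lncRNA:CR44478. In the fit of all libraries the adjusted p of each was 1.00. Over the 85 peaks of the JAK-STAT and Ets list, the median was 0.01, and 43 were above 0.

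Genes of growth and the cell cycle gave no common direction. In the S phase list 25 of 44 peaks were above 0, with a median of 0.03, and in the M phase list 22 of 34, with a median of 0.04. The TSS of stg, the Cdc25 phosphatase gene that starts mitosis, had a difference of 0.23 ± 0.16 (SE), whereas a peak in its coding exon had -0.31 ± 0.21. Likewise, the leading peaks of the S phase list, both in introns of E2f1, a transcription factor gene of S phase entry, had -0.37 ± 0.18 and 0.22 ± 0.17. An intron of Myc had 64.5, 69.5 and 71.0 CPM at 25 °C, 64.8, 112.6 and 80.1 CPM at 14 °C and 82.7, 96.2 and 89.1 CPM at 29 °C, which overlap by one library at 14 °C. Of the 150 peaks at cytoplasmic ribosomal protein genes 83 were above 0, and of the 92 at mitochondrial ones 46, with 0.22 ± 0.13 at mRpL55 and 0.23 ± 0.16 at mRpL21, the leading peaks of the latter. The highest and lowest of the former, at RpS12 (0.42 ± 0.17) and next to RpS7 (the CecA1 promoter described above), were the exceptions in a list with a median of 0.03.

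In the oxidative stress list, both leading peaks were higher at 25 °C in the mean difference. The promoter of Prx6b, a peroxiredoxin gene, had 42.8, 38.8 and 54.1 CPM at 25 °C, 20.5, 29.4 and 26.1 CPM at 14 °C and 38.8, 53.8 and 37.1 CPM at 29 °C. The level at 25 °C was within that at 29 °C, with a difference between them of 0.06. At the TSS of Trxr1, a thioredoxin reductase gene, the difference from the mean of the extremes was 0.32 ± 0.21 (SE), and the libraries at 25 °C overlapped with those at 29 °C and with 1 at 14 °C. In this list 34 of 54 peaks were above 0, with a median of 0.04, and in the hemocyte list 36 of 66, with a median of 0.03. Insulin and TOR genes had 33 of 71 above 0, stress kinase and AP-1 genes 34 of 77, cold-response genes 10 of 25, and genes of other cell types 6 of 15. The leading peaks of this last list, at elav and at the muscle actin gene Act57B, had -0.32 ± 0.21 and -0.29 ± 0.25.

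The peaks outside the range of all other libraries were spread over promoters, introns and intergenic sites. Of the 38 above, 20 were at a TSS (52.6%), and of the 79 below, 37 (46.8%), against 46.3% of all peaks. On chromosome arm 3L lay 29 of the 79 below (36.7%), against 20.9% of all peaks, and 8 of the 38 above (21.1%). Matches to the GATA motif were found in 10.1% of the central 300 bases of those below, 5.26% of those above and 4.94% of all peaks. The DRE, a promoter element bound by the factor DREF, was matched in 8.86% below, 0% above and 3.77% of all. For AP-1 the shares were 13.9%, 18.4% and 10.7%, for M1BP, a promoter factor, 1.27%, 7.89% and 2.78%, and for the heat shock element unit 6.33%, 10.5% and 6.62%. The shares for the GAGA factor were 13.9%, 5.26% and 9.99%, and for STAT proteins 10.1%, 7.89% and 7.39%. Those for the E-box were 3.80%, 5.26% and 4.38%, and for Ets factors 1.27%, 0% and 1.90%. The median GC content was 41.9% in the peaks below, 43.8% in those above and 43.7% over all peaks. The motif shares rest on few peaks, such as 8 with GATA, 7 with DRE and 3 with M1BP. Neither the shares nor their relation to GC content were tested.

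In most of 15 measures of whole libraries the 25 °C mean lay between those at the extremes. The exceptions were the shares of counts on arms 3L and 3R and on chromosome 4. The SD of log2 counts over peaks was 0.85 ± 0.18 at 14 °C, 0.99 ± 0.13 at 25 °C and 1.12 ± 0.17 at 29 °C (mean ± SD of 3 libraries). The share of counts in peaks at a TSS was 46.4% ± 2.92 at 14 °C, 49.4% ± 2.19 at 25 °C and 50.8% ± 1.41 at 29 °C, and that in the tallest 10% of the peaks was 29.2% ± 6.03, 34.7% ± 2.89 and 37.5% ± 2.38. Of the 15 measures, compared between the 3 libraries at 25 °C and the 6 others with an exact two-sided permutation test, none passed the threshold. The smallest p was 0.0952 (adjusted over the 15 measures 0.976), for the share of counts on arm 3L, at 20.4% ± 0.0626 at 25 °C against 20.5% ± 0.0636 and 20.6% ± 0.123 at 14 and 29 °C. The smallest p the design allows is 0.0238.

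**Figure D4:**
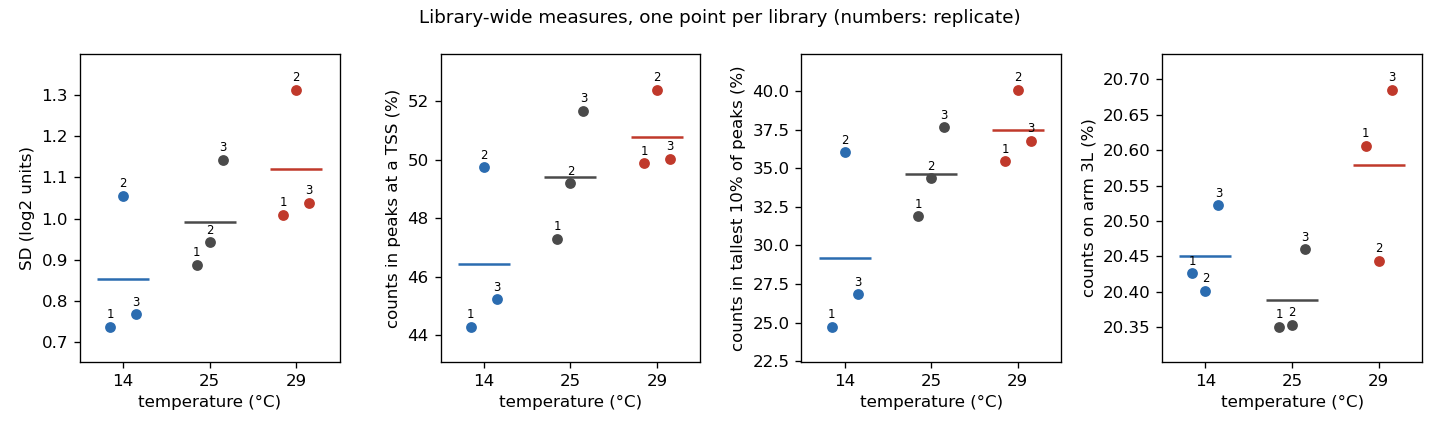
Each point is one library, labelled by replicate number, and lines are means at 14, 25 and 29 °C, for the SD of log2 counts over peaks, the shares of counts (%) in peaks at a TSS and in the tallest 10% of peaks, and the share on arm 3L; the axes do not start at 0. In the first 3 panels the 25 °C mean lies between the others, and replicates 2, 3 and 2 are the highest at 14, 25 and 29 °C.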

How the data were processed

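ATAC-Seq libraries of S2R+ cells were analysed, with 3 replicates at each of 14, 25 and 29 °C for 24 h. The authors trimmed reads with Trimmomatic 0.38, mapped them to dm6 with Bowtie2, discarded mitochondrial, duplicate and non-unique reads, called peaks per library with MACS2, and counted reads with DiffBind in windows of 250 bp on either side of the summits, some of them wider. The deposited table holds raw counts (whole numbers). The authors also deposited normalized values, a signal of counts divided by a size factor per library, used here only to recover these factors and to check the table.

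Counts were tested with edgeR 4.0.16 (R 4.3.3): TMM scaling, one robust quasi-likelihood fit of the 9 libraries by temperature (6 residual degrees of freedom), then Benjamini-Hochberg adjustment over 17175 peaks, with 0.05 as the threshold. The standard error is the size of a log2 difference divided by the square root of F. CPM values are counts in peaks scaled to library size with TMM factors, and log2 values have a prior count of 2. Depth was between 3290670 and 10805366 counts. The median peak, with a mean of 260.7 counts, has 6.19% of counting error, and the biological coefficient of variation was 22.7%, so that variation between replicates set the precision. Intervals cover the spread between these libraries, which the paper calls biological replicates.

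The groups come from the sample labels. The contrast, the members and the gene lists were chosen with earlier results of these data known. Named peaks were, in each direction, the 12 with the smallest p among those without overlap of libraries, and the 2 with the smallest p of each of 13 gene lists; a peak was given the gene that it overlaps, with 2000 bp upstream, or else the nearest TSS. Peaks named from the fit without 3 libraries, and those that kept their position under each scaling, were chosen after their values were seen. Genes and TSS (peak within 500 bp) come from Ensembl release 115, without transposable elements; sequence and GC content come from RefSeq's dm6 genome. Peak positions are as deposited. One of the named peaks is not reported here.

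Alternatives were RLE scaling, the total count, the authors' factors, loess offsets (span 0.3) against peak height or GC content, the spread of each library as a covariate, the replicate number as a block, DESeq2 1.42.0, limma 3.58.1 (voom with quality weights), a filter on low counts (12884 peaks, mean of 182 or more), a threshold of 0.1, a straight line in temperature, and each library left out. The fit without the library of widest spread at each temperature, and other scalings for counts of peaks without overlap, were added after seeing the data. Same-numbered libraries at 14 and 25 °C had correlated deviations of 0.671, -0.453 and -0.737, and at 25 and 29 °C of 0.528, -0.488 and -0.601, so the 25 °C libraries were taken as unpaired. Those at 14 and 29 °C had 0.634, 0.826 and 0.538. Differently numbered libraries also went together, with 0.559 for replicates 1 at 14 °C and 3 at 29 °C and 0.551 for replicates 3 and 1. Differently numbered pairs with a replicate 2 were negative between 14 and 29 °C, so these values do not show pairing by number. The procedure was tested on simulated data.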

Additional observations from a re-analysis of the deposited data

How the results depend on the processing

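Of the named peaks, each kept its direction under every alternative that was run, and those past the threshold in any fit were so only in the 3 named next. The counts of peaks past the threshold were 0 higher and 0 lower except with the spread of each library as a covariate (8 and 1), limma voom with quality weights (240 and 80) and without the library of widest spread at each temperature (107 and 15). The cause was not tested. The count beyond both extremes was 0 in every fit. The replicate block gave 0 calls, as did the block with offsets against peak height, and the numbers do not pair the 25 °C libraries. The counts of peaks above and below all other libraries, 38 and 79, became 112 and 26 with the authors' size factors and 77 and 136 with offsets against peak height. They were 44 to 183 and 94 to 288 with each library left out, where fewer libraries had to be exceeded.

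The median of the heat shock list, -0.14, was -0.067 with the authors' size factors, -0.060 with voom weights, -0.21 against a straight line in temperature and -0.165 to -0.085 with each library left out. The M phase median, 0.04, was 0.12 with the authors' size factors, 0.018 with offsets against peak height, 0.067 with the replicate block, 0.016 with the block and offsets against peak height, 0.015 with the filter on low counts, 0.080 without the 3 widest libraries and 0.0012 to 0.081 with each library left out. The median at genes of other cell types, -0.04, was -0.146 to 0.027. Calls in lists appeared with voom weights (1.86% of all peaks), 4 of 77 in the stress kinase list, 3 of 150 in cytoplasmic ribosomal proteins, 2 each in heat shock (of 22), cold-response (of 25), unfolded protein (of 30), hemocyte (of 66) and JAK-STAT (of 85) genes and 1 each in S phase (of 44), M phase (of 34) and oxidative stress (of 54) genes. Without the widest libraries (0.710% of all peaks) there were 2 in JAK-STAT genes and 1 each in heat shock, unfolded protein and hemocyte genes, and with the spread covariate (0.0524%) 1 in heat shock genes.

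The difference of 25 °C from the other libraries changed sign for library-wide measures when single libraries were left out. It ranged from -0.072 to 0.069 for the SD of log2 counts, and, in percentage points, from -0.347 to 1.84 for peaks at a TSS, -1.16 to 0.631 for exons, -0.396 to 0.185 for introns, -0.816 to 0.112 for intergenic peaks, -0.311 to 0.154 for wide peaks, -0.412 to 2.68 for the tallest peaks, -0.260 to 0.375 for arm 2R, -0.0530 to 0.220 for 3R, -0.380 to 0.147 for X and -0.00629 to 0.00691 for Y. The slope of log2 count on GC content ranged from -0.10 to 0.15. Having 3 libraries per temperature limits these results. The median half-width of the 95% intervals of single peaks was 0.45 on the log2 scale. The test with adjustment over all peaks was stricter, and in the main fit it called none of the 48 peaks with a difference above 0.5 in size.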

Other observations

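The deposited table of normalized values holds 4 peaks at which the difference of 25 °C from the extremes is not that given by the raw counts. They lie at Rsf1 and lncRNA:CR43411 on chromosome 2L, at pav on 3L and at CG1578 on X. In each, the 14 and 29 °C values of the normalized table (23 values in all) are those of a peak with the same start and end on another chromosome, X, 3L, 3R and 3L in this order, whereas the 25 °C values match the raw counts of the peak itself. At Rsf1 the normalized table gives 126, 123 and 144 at 25 °C, 167, 237 and 205 at 14 °C and 305, 357 and 237 at 29 °C. From the raw counts, the values at 14 °C are 181, 143 and 137 and those at 29 °C 160, 147 and 153. The log2 difference of 25 °C from the mean of the extremes is -0.89 in the normalized table and -0.22 from the raw counts. At lncRNA:CR43411 it is 0.64 and 0.15, at pav -0.59 and 0.20, with a change of sign, and at CG1578 0.28 and -0.05, also with a change of sign. There are 6 such pairs of equal positions in the table, and the other peaks match their raw counts within 0.0420%. No test here used the normalized values of these peaks.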
